A study of Mus musculus with 32 samples.

Results

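Livers of C+Fc-GLP-1 mice were compared with livers of C mice at the time of partial hepatectomy (PH), to ask what the drug did to liver mRNA on a normal chow diet, before surgery and without a fatty liver model. The comparison was set by the labels alone and holds 8 of the 32 arrays of the series, 4 of C+Fc-GLP-1 and 4 of C mice, 1 array for each liver. All were male C57/BL6 mice, which per the study's methods were 8 weeks old when the diets began. They ate standard chow for 3 weeks, and in the last 2 weeks the C+Fc-GLP-1 mice received Fc-GLP-1, a long-acting GLP-1 receptor agonist made of a GLP-1 peptide joined to an antibody Fc part, under the skin at 10 nmol/kg every other day, while C mice received saline. The source names of the arrays give Fc-GLP-1, but their descriptions and growth protocol give an agonist of both the GLP-1 and the glucagon receptor at 4.4 mg/kg per day, and this conflict between the labels could not be settled. The hour at which livers were taken is not given in the sources used here. The other groups had a diet deficient in methionine and choline (MCD), with Fc-GLP-1 (M+Fc-GLP-1) or without, or were studied 2 weeks after removal of 70% of the liver.

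GLP-1 is a gut hormone released on eating that raises insulin secretion and lowers food intake. Its receptor is abundant in pancreatic islets and parts of the brain and scarce in hepatocytes, whereas the glucagon receptor is abundant in hepatocytes, so many hepatic responses to GLP-1 agonists are thought to pass through insulin, glucagon and feeding. In liver, the SREBP transcription factors switch on the enzymes of fatty acid and cholesterol synthesis, PPAR alpha switches on fatty acid oxidation in fasting, and a circadian clock tied to feeding times drives daily cycles in metabolic and detoxifying genes.

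Each value below is the log2 signal of 1 probe after subtraction of the 75th percentile of its array, so that 0 is the signal of the 75th percentile spot, and a difference of 1 is a 2-fold change. Between 43.4% and 48.1% of probes were well above background on the C+Fc-GLP-1 arrays and between 47.2% and 69.1% on the C arrays, with C replicate 2 at the upper end. The 4 C arrays shared a slide with the MCD arrays and the 4 C+Fc-GLP-1 arrays shared another with the M+Fc-GLP-1 arrays, so in the comparison on chow the slide cannot be told apart from the treatment. Correlations between arrays of a group ran from 0.960 to 0.981 in C and from 0.971 to 0.980 in C+Fc-GLP-1 mice. The hepatocyte defining genes (albumin, apolipoproteins and the like) were well above background on all C arrays for all 19 tested, none passed the test, and their median difference was -0.16 (-0.21 to 0.16 over the alternative fits).

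Fc-GLP-1 on chow was accompanied by 444 genes past the threshold, 206 higher and 238 lower than in C livers. Among the largest rises were those of Pnpla5 (15.1-fold, with 1 of 4 C arrays well above background) and Pnpla3 (5.72-fold), which encode patatin-like phospholipase domain proteins of lipid droplets. Large rises were also seen for the clock gene Arntl (5.95-fold) and the platelet chemokine Ppbp (5.49-fold). The falls included the clock output gene Dbp (7.79-fold), the detoxifying enzymes Cyp3a11 (3.04-fold) and Gsta2 (4.12-fold) and the peroxisomal thiolase Acaa1b (3.28-fold). Of the 21073 genes tested 2.11% passed, 0.978% higher and 1.13% lower, and 18.1% had an unadjusted p under 0.05. Groups that do not overlap were seen in 183 of the 206 higher and 211 of the 238 lower genes, against 4.57% (higher) and 5.39% (lower) of all genes tested. These genes were picked by a test of the same values, so a high share without overlap follows from the choice and is no separate evidence. The median difference over all genes was -0.04, and 46.7% of genes lay above 0.

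The signal strength differed between the 2 directions. Of the 206 higher genes, 184 were well above background on all 8 arrays and 5 on no C array. Of the 238 lower genes, 137 were well above background on all 8 arrays and 61 on no C+Fc-GLP-1 array, and 110 of them carry no gene symbol, against 30 of the higher genes. For genes below background in a group the fold change is given as a lower bound, which holds for the normalization used here and not for all alternative fits. The share of probes above background was lower in the C+Fc-GLP-1 group, and its part in these falls was not tested. The balance also depended on the filter that drops dim probes. Without it 534 genes passed, 344 higher and 190 lower.

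The count depended on single arrays and on the arrays used to estimate the spread. It was 198 without C replicate 1, 247 without C replicate 2 and 290 without C replicate 4, and 279, 242, 232 and 265 without C+Fc-GLP-1 replicate 1, 2, 3 and 4, and it was 48 when only the 8 arrays were fitted. Centring on the array median moved the median of all genes from -0.04 to 0.26, and then 933 of 1039 genes past the threshold were higher (89.8%, against 46.4% here). All 55 genes named below as past the threshold kept their direction in every one of the 19 alternative fits. In the fits of fewer groups, with a replicate block or with a mean-variance trend the group means stay the same, so no direction could change there. Of the 55 genes only 12 passed in the fit of the 8 arrays alone and 37 in that of the 16 arrays before PH. The fold change of 26 of them was over 1.5 times smaller, and that of 6 over 1.5 times larger, on the authors' values, and the numbers were 26 and 5 with normexp background correction and quantile normalization. The failed fits listed for single genes below leave out the fits of the 8 arrays alone and of the 16 arrays before PH. With the 8 arrays alone, Acaa1b was the only gene on any of the lists below that kept its call. The others that passed there were Dntt, Nap1l3, Itgb3bp, Acan, Pknox2, Adam11, Cbx8, Ccl1, Olfr433, Xlr4a and Xlr4b, which are on no list. Among those that failed, limma's adjusted p was 0.0519 for Pnpla5, 0.0624 for Cyp3a11, 0.169 for Dbp and 0.188 for Sqle.

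Cholesterol synthesis and uptake genes lay almost all above 0. Of 21 genes listed 20 were tested, 19 lay above 0, and their median difference was 1.15, against -0.04 over all genes. The test was passed by 2 of them, Sqle and Pmvk, both higher, and 12 had an unadjusted p under 0.05. Sqle encodes squalene epoxidase, the first oxygen-requiring step of sterol synthesis, and Pmvk encodes phosphomevalonate kinase of the mevalonate pathway.

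The Sqle signal was 2.66, 3.89, 5.40 and 3.97 on the C arrays and 5.55, 5.19, 5.64 and 5.65 on the C+Fc-GLP-1 arrays. The groups overlapped through C replicate 3 alone, and the difference was 1.52 (standard error 0.41, adjusted p = 0.0453). Pmvk was at 5.31, 6.56, 6.16 and 6.04 on the C arrays and 7.36, 7.0, 7.14 and 7.28 on the C+Fc-GLP-1 arrays. Every treated liver was above every C liver, and the difference was 1.18 (standard error 0.26, adjusted p = 0.0196). In both genes the spread was wider in C mice, with SDs of 1.12 and 0.52 against 0.22 and 0.16 in C+Fc-GLP-1 mice (n = 4 each), and C replicate 1 had the lowest signal.

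Other members did not pass. Mvd, mevalonate decarboxylase, had a difference of 1.45 (standard error 0.43, adjusted p = 0.071) and Dhcr7, the last reductase of the pathway, 1.15 (standard error 0.33, adjusted p = 0.0609), both without overlap. The regulator Srebf2 had 0.60 (standard error 0.31) and Insig1, which holds SREBP in the endoplasmic reticulum, 0.33 (standard error 0.40), and neither passed. Over the alternative fits the median of the list stayed between 0.79 and 1.45 and the number past the threshold ranged from 0 to 8. With 1 array left out, Pmvk passed in all fits but that without C replicate 1 (adjusted p = 0.0738). Sqle did not pass without C replicate 1, 2 or 4 or C+Fc-GLP-1 replicate 1, 2, 3 or 4 (adjusted p up to 0.165), nor without the filter on dim probes (adjusted p = 0.058).

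Lipogenesis and triglyceride synthesis genes lay above 0 for the most part, with the regulator of the pathway an exception. All 26 were tested, 5 passed, all higher, 22 lay above 0, and the median was 0.67. Those that passed were Pnpla5 and Pnpla3, 2 genes of patatin-like phospholipase domain proteins whose transcription follows SREBP and feeding, Acss2, which makes acetyl-CoA from acetate in the cytosol, G6pdx, the NADPH-producing entry to the pentose phosphate pathway, and Acly, which makes cytosolic acetyl-CoA from citrate.

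Pnpla5 was at -3.67, -2.11, -5.36 and -5.18 on the C arrays and -0.31, -1.19, 1.13 and -0.30 on the C+Fc-GLP-1 arrays, read by a probe at chr15:83943051-83943110 (mm9, as the files give it). It was well above background on 1 C array and on all 4 treated arrays, the groups did not overlap, and the difference was 3.91 (standard error 0.66, adjusted p = 0.00286), or 1.78 to 4.57 over the alternative fits. Pnpla3 was at -3.95, -2.53, -3.70 and -3.29 on the C arrays and -1.11, -2.27, 0.07 and -0.10 on the C+Fc-GLP-1 arrays, with C+Fc-GLP-1 replicate 2 close to the highest C liver and a difference of 2.52 (standard error 0.61, adjusted p = 0.0282), or 0.91 to 2.99 over the alternative fits. A second probe of Pnpla3 differed by 2.02 (standard error 0.57). Acss2 was at 3.42, 6.19, 5.60 and 4.56 on the C arrays and 6.54, 7.05, 6.84 and 7.68 on the C+Fc-GLP-1 arrays, without overlap and with C replicate 1 farthest below, a difference of 2.08 (standard error 0.45, adjusted p = 0.0157).

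G6pdx rose by 1.58 (standard error 0.40, adjusted p = 0.0335) and Acly by 1.15 (standard error 0.31, adjusted p = 0.0497), the latter with overlapping groups. Fasn, fatty acid synthase, had a difference of 1.18 (standard error 0.44, adjusted p = 0.144) and Gpam, the mitochondrial acyltransferase that opens glycerolipid synthesis, 1.10 (standard error 0.31, adjusted p = 0.0585), with no overlap between the groups but not past the threshold. Srebf1, which encodes SREBP-1, went the other way, at -0.90 (standard error 0.31, adjusted p = 0.116), with every treated liver below every C liver. Pnpla5 passed in all 8 fits with 1 array left out and Acss2 in all but that without C replicate 1 (adjusted p = 0.0649). Pnpla3 did not pass without C replicate 1, 3 or 4 or C+Fc-GLP-1 replicate 3 or 4 (adjusted p up to 0.0848). G6pdx did not pass without C replicate 1, 3 or 4 or C+Fc-GLP-1 replicate 1 or 3 (adjusted p up to 0.124), nor with normexp and quantile normalization or on the authors' values (adjusted p up to 0.13). Acly did not pass without C replicate 1, 3 or 4 or C+Fc-GLP-1 replicate 1, 2, 3 or 4 (adjusted p up to 0.166), nor without the filter on dim probes, with the mean over its probes or with a replicate block (adjusted p up to 0.171). Lipid droplet coat and CIDE genes did not follow: 0 of 15 tested passed, 6 had an unadjusted p under 0.05, and the median was -0.46 (-0.60 to -0.15 over the alternative fits), with Cidec at -1.52 (standard error 0.58, adjusted p = 0.15).

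**Figure D1:**
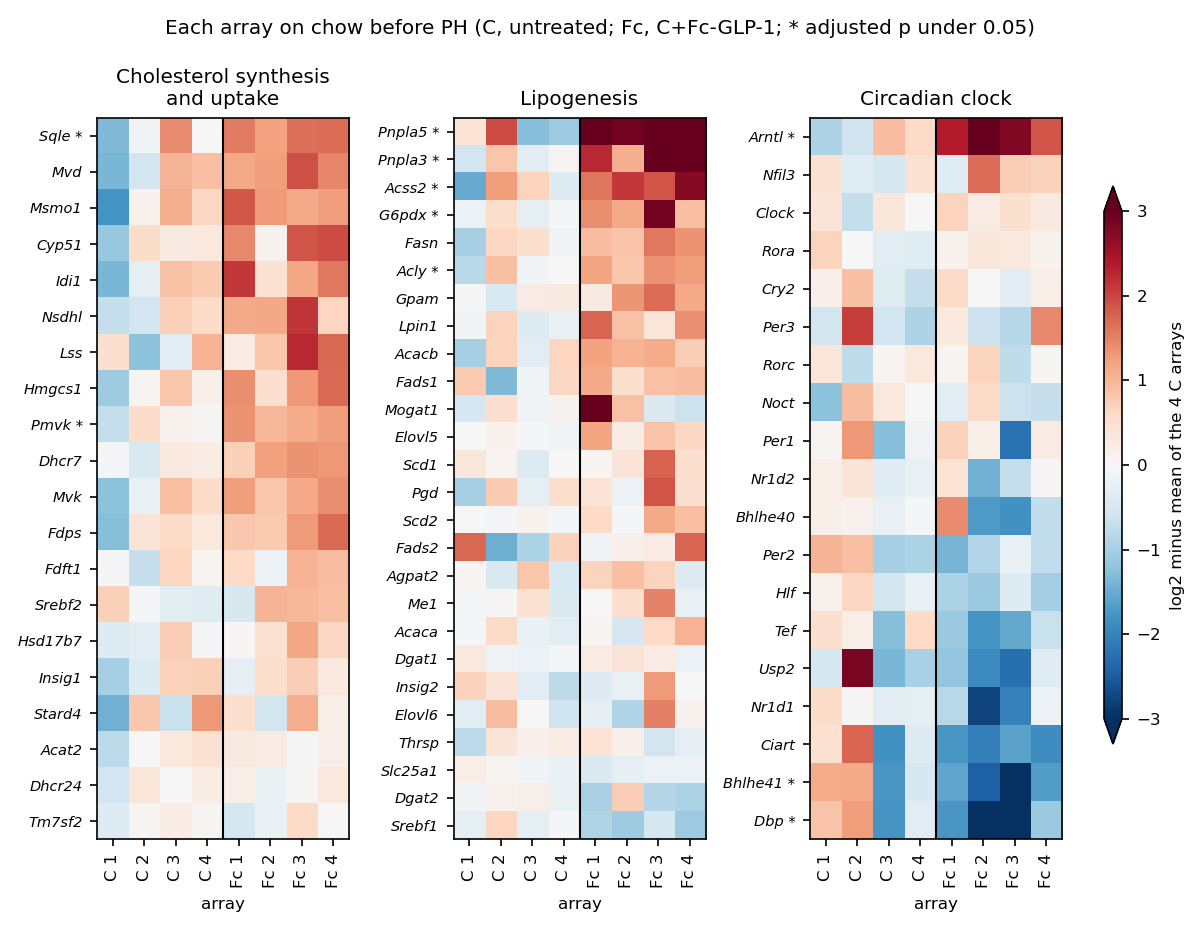
Each column is 1 array on chow before PH (C, untreated, and Fc, C+Fc-GLP-1, replicates 1 to 4) and each row 1 tested gene of the cholesterol, lipogenesis and clock lists, ordered by the difference between the groups; colour gives the log2 value minus the mean of the 4 C arrays, cut at 3 in either direction, and an asterisk marks an adjusted p under 0.05. Most cholesterol and lipogenesis genes are red on the treated arrays and C replicate 1 is blue for most cholesterol genes, while Dbp, Bhlhe41 and Ciart are blue and Arntl is red.

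Clock genes past the threshold moved in both directions. Arntl, which encodes BMAL1 of the activating arm, rose, and Dbp and Bhlhe41, which are among the genes that BMAL1 and CLOCK activate, fell. Of 21 genes listed 19 were tested, these 3 passed, 8 had an unadjusted p under 0.05, and the median was -0.43 (-0.71 to -0.13 over the alternative fits). Arntl was at -1.42, -1.10, 0.41 and 0.08 on the C arrays and 1.87, 2.75, 2.27 and 1.37 on the C+Fc-GLP-1 arrays, with every treated liver above every C liver. The difference was 2.57 (standard error 0.64, adjusted p = 0.0327).

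Dbp, a PAR bZIP factor that carries the clock's phase to metabolic genes, was at 6.28, 6.70, 3.66 and 5.10 on the C arrays and 3.69, 0.62, 1.27 and 4.32 on the C+Fc-GLP-1 arrays. The difference was -2.96 (standard error 0.68, adjusted p = 0.0225) and another probe gave -2.86, but the groups overlapped between C replicate 3 and C+Fc-GLP-1 replicates 1 and 4. Bhlhe41, the transcriptional repressor DEC2, was well above background on 3 C arrays and no treated array, at -2.01, -1.98, -4.87 and -3.61 on the C arrays and -4.71, -5.57, -6.43 and -4.78 on the C+Fc-GLP-1 arrays, and was at least 2.66-fold lower (adjusted p = 0.0263), with C replicate 3 inside the treated range. The log2 difference of Bhlhe41 ranged from -2.84 to -0.74 over the alternative fits. Among genes that did not pass, the repressor Ciart had -1.81 (standard error 0.60), the nuclear receptor Nr1d1 -1.46 (standard error 0.47), Tef -1.28 (standard error 0.36) and Hlf -0.87 (standard error 0.29), the last a pair of PAR bZIP factors related to Dbp, while Per1, Per3, Cry2 and Clock lay between -0.28 and 0.42. Usp2 had -1.42, Per2 -0.80, Bhlhe40 -0.71 and Nfil3 0.68, also not past the threshold.

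The clock genes also varied among the untreated livers. C replicates 3 and 4 had lower Dbp, Bhlhe41 and Ciart and higher Arntl than C replicates 1 and 2, so that C replicate 3 lay nearest to the treated livers. Arntl did not pass without C replicate 1 or 2 or C+Fc-GLP-1 replicate 1, 2 or 3 (adjusted p up to 0.101). Dbp did not pass without C replicate 1 or 2 or C+Fc-GLP-1 replicate 2 or 3 (adjusted p up to 0.0762). Bhlhe41 did not pass without C replicate 1 or 2 or C+Fc-GLP-1 replicate 2 or 3 (adjusted p up to 0.092).

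For the clock, cholesterol and lipogenesis lists, the 250 bases before the start sites were searched on both strands in the RefSeq promoters (GRCm38.p6) for CACGTG, the E-box that BMAL1 and CLOCK bind, and for TCACNCCAC, a form of the sterol regulatory element. The E-box stood in 4 of the 16 clock genes with a promoter in this table (25%), namely Per1, Tef, Bhlhe41 and Ciart, in 3 of 15 cholesterol genes (20%) and in 3 of 21 lipogenesis genes (14.3%), against 9.17% of tested genes and 6.86% of all promoters. The sterol element stood in 1 of 15 cholesterol genes, Hmgcs1, which had a difference of 1.23 (standard error 0.40, adjusted p = 0.0991), in none of 21 lipogenesis genes, and in 1.22% of all promoters. The sequences of Bhlhe41, Ciart and Hmgcs1 are shown as examples of matches, chosen after the values were seen, 5′ to 3′ on the strand of the gene, with the match in capitals.
Bhlhe41 (chr6:145865421-145865670, minus strand): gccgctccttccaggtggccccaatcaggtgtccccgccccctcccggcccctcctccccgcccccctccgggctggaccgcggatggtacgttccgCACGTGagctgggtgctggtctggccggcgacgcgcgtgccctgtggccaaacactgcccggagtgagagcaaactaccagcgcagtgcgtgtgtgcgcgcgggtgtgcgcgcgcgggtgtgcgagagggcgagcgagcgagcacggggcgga
Ciart (chr3:95882229-95882478, minus strand): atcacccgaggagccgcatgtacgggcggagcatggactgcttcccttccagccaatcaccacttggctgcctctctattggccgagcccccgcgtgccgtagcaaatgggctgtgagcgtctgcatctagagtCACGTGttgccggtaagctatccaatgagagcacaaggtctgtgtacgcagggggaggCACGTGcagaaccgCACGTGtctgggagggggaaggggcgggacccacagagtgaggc
Hmgcs1 (chr13:119690101-119690350, plus strand): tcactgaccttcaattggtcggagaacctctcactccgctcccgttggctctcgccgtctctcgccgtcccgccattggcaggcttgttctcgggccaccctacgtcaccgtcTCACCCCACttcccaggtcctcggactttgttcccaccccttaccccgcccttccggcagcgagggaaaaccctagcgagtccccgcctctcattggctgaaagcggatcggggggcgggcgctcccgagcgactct
The match began 153 bases before the start in Bhlhe41 and 137 bases before it in Hmgcs1, and Ciart held 3 matches, the first at 116 bases.

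Several detoxifying enzymes fell. Of 24 xenobiotic cytochrome P450 and receptor genes tested 3 passed, all lower, 18 lay below 0 and the median was -0.35, which ranged from -0.47 to -0.04 over the alternative fits. Cyp3a11, the main drug-metabolizing Cyp3a enzyme of mouse liver, was at 7.93, 6.94, 8.19 and 7.97 on the C arrays and 6.30, 6.12, 5.95 and 6.24 on the C+Fc-GLP-1 arrays. Its groups did not overlap, and it fell by 1.60 in log2 units (adjusted p = 0.0103, standard error 0.33). Cyp3a25 fell by 1.23 in log2 units (adjusted p = 0.0348, standard error 0.31) and Cyp2a4, a steroid hydroxylase, fell by 1.22 in log2 units (adjusted p = 0.0255, standard error 0.29), both without overlap.

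Among all Cyp3a genes, grouped after their values were seen, 4 of 8 tested passed, all lower. Cyp3a16 fell by 2.03 in log2 units (adjusted p = 0.0311, standard error 0.50) and Cyp3a41b fell by 2.0 in log2 units (adjusted p = 0.00297, standard error 0.34), while Cyp3a13 had 0.28 and Cyp3a44 0.02. These genes are closely related copies and their probes may read more than 1 of them. The receptors that switch on this family had Nr1i3 (CAR) at -1.24 (standard error 0.36, adjusted p = 0.0608) and Nr1i2 (PXR) at -0.95 (standard error 0.37, adjusted p = 0.158), and their electron donor Por was at -0.88 (standard error 0.27, adjusted p = 0.0776). Gsta2, a glutathione transferase, was at 3.40, 4.20, 4.87 and 4.56 on the C arrays and 3.61, 2.35, 0.98 and 1.90 on the C+Fc-GLP-1 arrays, with C replicate 1 inside the treated range, and fell by 2.04 in log2 units (adjusted p = 0.0478, standard error 0.55). It alone passed of 23 antioxidant, glutathione and NRF2 target genes tested. In that list 9 lay above 0 and 14 below, with a median of -0.13 that changed sign over the alternative fits (-0.27 to 0.17). Cyp3a11 and Cyp3a41b passed in all 8 fits with 1 array left out, and the others lost their calls in some. Cyp2a4 did not pass without C replicate 1 or C+Fc-GLP-1 replicate 1 or 3 (adjusted p up to 0.0654), nor with centring on the array median (adjusted p = 0.0891). Cyp3a25 did not pass without C replicate 1, 2 or 4 or C+Fc-GLP-1 replicate 1, 2 or 3 (adjusted p up to 0.0972), nor with centring on the array median (adjusted p = 0.0715). Cyp3a16 did not pass without C replicate 2 or 4 or C+Fc-GLP-1 replicate 2 or 3 (adjusted p up to 0.0974). Gsta2 did not pass without C replicate 1, 2, 3 or 4 or C+Fc-GLP-1 replicate 2, 3 or 4 (adjusted p up to 0.141), nor with centring on the array median, without the filter on dim probes or with a replicate block (adjusted p up to 0.062).

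PPAR alpha targets and fatty acid oxidation genes had 1 of 29 tested past the threshold, but 25 lay below 0 and the median was -0.41 (-0.50 to -0.11 over the alternative fits). Acaa1b, the peroxisomal 3-ketoacyl-CoA thiolase, was at 8.01, 7.61, 8.05 and 7.97 on the C arrays and 6.20, 6.03, 5.95 and 6.61 on the C+Fc-GLP-1 arrays, read by a probe at chr9:119057326-119057385 (mm9). All treated livers lay below all C livers, and it fell by 1.71 in log2 units (adjusted p = 0.0151, standard error 0.37), which passed in every alternative fit. Acot1, an acyl-CoA thioesterase, had -1.56 (standard error 0.55, adjusted p = 0.118), the fatty acid transporter Cd36 -1.15 (standard error 0.40, adjusted p = 0.116) and the carnitine transferase Cpt1a -0.36 (standard error 0.22). Fgf21, a hepatokine of fasting and lipid stress, was at 0.20, -0.12, -0.11 and -0.31 on the C arrays and 1.21, -1.0, 0.86 and 1.22 on the C+Fc-GLP-1 arrays. C+Fc-GLP-1 replicate 2 was below all C livers and the other three were above them, and the difference was 0.66 (standard error 0.54, adjusted p = 0.54).

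In bile acid genes 2 of 23 passed, in opposite directions, with a median of -0.19 that changed sign over the alternative fits (-0.27 to 0.12). Cyp39a1, an oxysterol 7-alpha-hydroxylase, was at 2.61, 2.37, 2.0 and 2.11 on the C arrays and 3.59, 3.51, 4.08 and 3.80 on the C+Fc-GLP-1 arrays and rose by 1.47 (standard error 0.30, adjusted p = 0.0105), without overlap. Abcc3, which exports conjugates across the sinusoidal membrane, was at 6.52, 6.46, 5.68 and 5.96 on the C arrays and 5.27, 5.04, 4.82 and 5.19 on the C+Fc-GLP-1 arrays and fell by 1.07 in log2 units (adjusted p = 0.0133, standard error 0.23). Cyp7a1, the rate-limiting enzyme of bile acid synthesis, had -0.03 (standard error 0.61). Both calls held in all 8 fits with 1 array left out. Cyp39a1 did not pass with normexp and quantile normalization or on the authors' values (adjusted p up to 0.284). Abcc3 did not pass with normexp and quantile normalization, with centring on the array median or on the authors' values (adjusted p up to 0.0726).

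Glucose genes and hormone receptors had few calls. In gluconeogenesis 0 of 12 passed, with 3 at an unadjusted p under 0.05, among them the serine dehydratase Sds at -0.94 (standard error 0.30, adjusted p = 0.0905), and glucose-6-phosphatase G6pc was at 0.06 (standard error 0.60). In glycolysis 1 of 14 passed, Hk2, the insulin-responsive hexokinase that is low in hepatocytes, with a difference of 1.92 (standard error 0.48, adjusted p = 0.032), overlapping groups and a signal above background on 1 C array and all treated arrays. Hk2 did not pass without C replicate 2, 3 or 4 or C+Fc-GLP-1 replicate 1, 2 or 3 (adjusted p up to 0.0926), nor on the authors' values (adjusted p = 0.102). In glycogen metabolism 0 of 14 passed, with 3 at an unadjusted p under 0.05. The receptor Glp1r was above background on 2 C arrays and 1 C+Fc-GLP-1 array and differed by -0.95 (standard error 0.51, adjusted p = 0.33), and Gcgr, the glucagon receptor, was above background on all 8 and differed by 0.32 (standard error 0.28, adjusted p = 0.573). Dpp4, the protease that inactivates native GLP-1, was at 2.15, 2.49, 2.55 and 2.22 on the C arrays and 3.54, 3.06, 3.32 and 2.94 on the C+Fc-GLP-1 arrays, higher in each treated liver but not past the threshold, at 0.86 (standard error 0.39, adjusted p = 0.23).

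**Figure D2:**
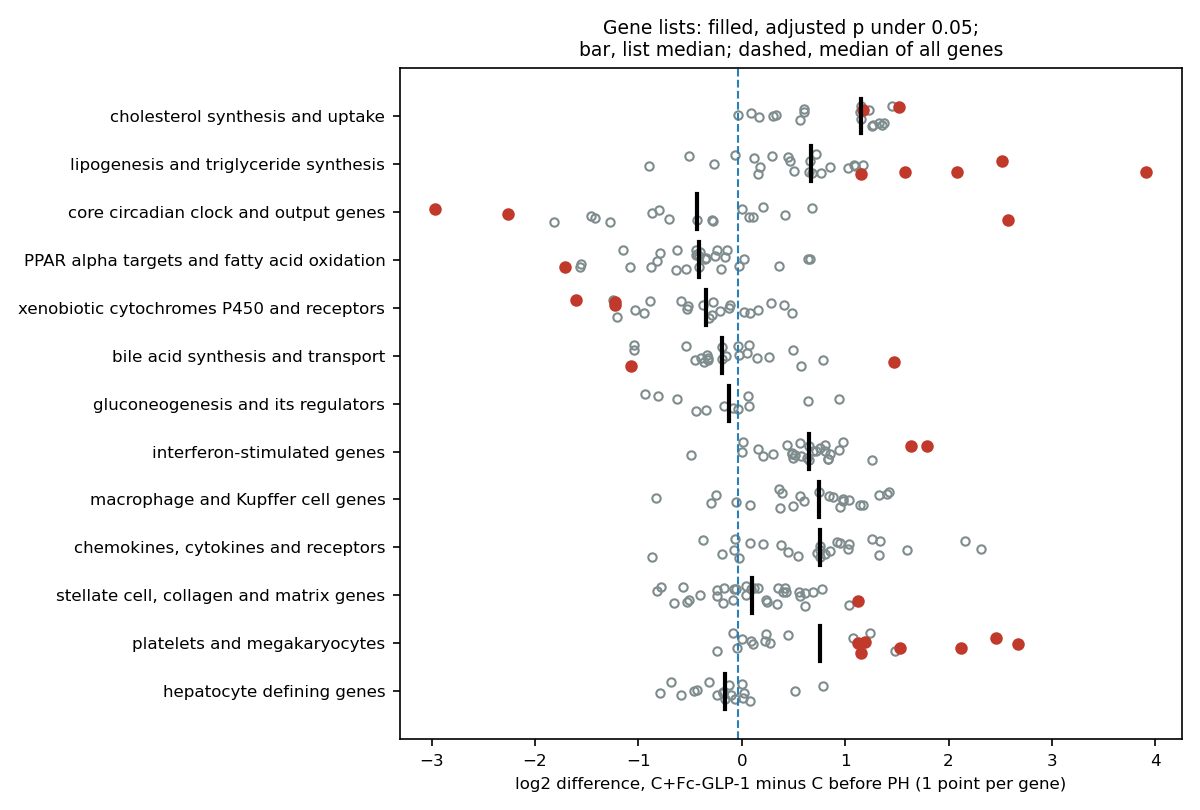
Each point is 1 tested gene of the list named at the left, placed by its log2 difference between C+Fc-GLP-1 and C livers before PH; filled red points passed the threshold, open points did not, the black bar is the median of the list and the dashed line the median of all 21073 genes (-0.04). The cholesterol list has the highest median (1.15) of the lists drawn and the clock list the lowest (-0.43).

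Interferon-stimulated genes had 2 of 29 past the threshold, 28 above 0 and a median of 0.65. Mx1, an interferon-induced GTPase against viruses, was at -2.67, -3.93, -4.06 and -3.43 on the C arrays and -1.05, -2.16, -1.94 and -1.80 on the C+Fc-GLP-1 arrays, above background on 1 C array and all treated arrays, without overlap, and rose by 1.79 (standard error 0.38, adjusted p = 0.0133). Ifi44 rose by 1.63 (standard error 0.45, adjusted p = 0.0492). Ifi44 did not pass without C replicate 1, 2, 3 or 4 or C+Fc-GLP-1 replicate 1, 3 or 4 (adjusted p up to 0.118), nor with the percentile over probes above background on every array or without the filter on dim probes (adjusted p up to 0.0609). In whole liver, more cells of a type and more RNA per cell cannot be told apart.

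Macrophage and Kupffer cell genes had 0 of 23 past the threshold, 7 with an unadjusted p under 0.05, 19 above 0 and a median of 0.75. Their summed linear signal, in units of the 75th percentile, was between 93.0 and 151.6 on the C arrays and between 138.5 and 219.7 on the treated arrays. Mpeg1, a macrophage pore protein, had 1.41 (standard error 0.40, adjusted p = 0.0569), and Adgre1, a surface marker of macrophages, had 0.57 (standard error 0.59) with overlapping groups. Chemokines and cytokines had 0 of 27 past the threshold, 8 with an unadjusted p under 0.05 and a median of 0.75. Ccl2 was at -1.03, -0.75, -0.61 and -0.66 on the C arrays and 1.93, 2.39, 0.05 and 1.81 on the C+Fc-GLP-1 arrays, higher in every treated liver, with a difference of 2.31 (standard error 0.85, adjusted p = 0.136), and Il1b, also without overlap, differed by 0.75 (standard error 0.47, adjusted p = 0.404).

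Among T, NK and cytotoxic cell genes 14 of 19 lay above 0 and 1 passed, Lck, the proximal kinase of the T cell receptor, at -0.82, -1.01, -1.09 and -1.03 on the C arrays and 0.10, 0.32, -0.22 and -0.21 on the C+Fc-GLP-1 arrays. It rose by 0.98 (standard error 0.23, adjusted p = 0.0263). Lck did not pass without C replicate 2 or 4 or C+Fc-GLP-1 replicate 1 or 2 (adjusted p up to 0.0755), nor with normexp and quantile normalization or on the authors' values (adjusted p up to 0.982). Of other immune genes, Ifng differed by 0.95 (standard error 0.44), Gzmb by 0.81 (standard error 0.58), Prf1 by -0.04 (standard error 0.28), Ly6g by 0.22 (standard error 0.29) and Tnf by -0.19 (standard error 0.64), with overlapping groups in each. The summed linear signal of the T and NK list was lower in treated livers, from 45.2 to 66.1 against 72.4 to 153.4, although the median difference of its genes was 0.21. Such a sum is weighted towards the brightest genes and does not show that the list fell.

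Stellate cell and matrix genes had 1 of 34 past the threshold and a median of 0.10. Sparc, a matrix glycoprotein of stellate cells, endothelium and platelets, was at 4.31, 4.20, 4.38 and 4.55 on the C arrays and 5.67, 5.67, 5.65 and 4.94 on the C+Fc-GLP-1 arrays and rose by 1.12 (standard error 0.25, adjusted p = 0.0207), although a second probe gave 0.29 (standard error 0.34). Sparc did not pass without C replicate 2 or C+Fc-GLP-1 replicate 1, 2 or 3 (adjusted p up to 0.0546), nor with the mean over its probes (adjusted p = 0.148). Col1a1 differed by 1.03 (standard error 0.62), Fap by 0.56 (standard error 0.49), Mmp2 by -0.57 (standard error 0.41), Acta2 by -0.40 (standard error 0.54), Des by -0.24 (standard error 0.26) and Tgfb1 by -0.08 (standard error 0.37), none past the threshold and each with overlap. Mmp9 did not pass the filter on dim probes.

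Several platelet genes rose, in a list put together after their values were seen. Of 20 tested 7 passed, all higher, and the median was 0.76, midway between 0.45 for P2ry12 and 1.07 for Tmem40. The summed linear signal was between 94.6 and 104.9 on the treated arrays against 43.4 to 52.1 on the C arrays. A linear sum is weighted towards the brightest genes. The mean log2 signal on the treated arrays was 5.48 for Sparc, 4.69 for Gng11 and 3.77 for Myl9, against 1.45 for Pf4 and 0.19 for Ppbp. Sparc is also on the stellate cell and matrix list, so the sum cannot be read as a measure of platelets alone. Pf4, the platelet factor 4 chemokine of alpha granules, was at -0.45, -0.78, -1.36 and -0.08 on the C arrays and 0.45, 1.80, 1.32 and 2.22 on the C+Fc-GLP-1 arrays, and Ppbp, the precursor of another granule chemokine, at -3.33, -1.64, -1.90 and -2.18 on the C arrays and -0.80, 0.22, 0.08 and 1.27 on the C+Fc-GLP-1 arrays. The groups did not overlap for either, and the differences were 2.12 (standard error 0.39, adjusted p = 0.00561) and 2.46 (standard error 0.58, adjusted p = 0.0254). Treml1, a platelet granule receptor, rose by 1.54, Gng11 by 1.19, Myl9 by 1.15, Sparc as above, and F13a1, the coagulation factor XIII subunit of platelets and macrophages, by 2.67 (standard error 0.73, adjusted p = 0.0497). F13a1 was above background on 1 C array and 3 treated arrays, and its difference ranged from 0.87 to 3.11 over the alternative fits.

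Other platelet genes did not pass. The integrin Itga2b had 0.24 (standard error 0.45), Itgb3 0.00 (standard error 0.32), Clec1b -0.04 (standard error 0.37) and Selp -0.24 (standard error 0.24). Pf4 passed in all 8 fits with 1 array left out. Ppbp did not pass without C replicate 1 or C+Fc-GLP-1 replicate 2 or 4 (adjusted p up to 0.0854). Gng11 did not pass without C replicate 1 (adjusted p = 0.0588). Treml1 did not pass without C replicate 1 or 4 or C+Fc-GLP-1 replicate 4 (adjusted p up to 0.079). F13a1 did not pass without C replicate 1, 3 or 4 or C+Fc-GLP-1 replicate 2, 3 or 4 (adjusted p up to 0.171), nor with normexp and quantile normalization, with the percentile over probes above background on every array, on the authors' values, without the filter on dim probes or with a replicate block (adjusted p up to 0.247). Myl9 did not pass without C replicate 2, 3 or 4 or C+Fc-GLP-1 replicate 1, 2, 3 or 4 (adjusted p up to 0.123), nor with the percentile over probes above background on every array, without the filter on dim probes or with a replicate block (adjusted p up to 0.0629).

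Lists for the remaining cell types had at most 1 call. Erythroid (6 tested), adipocyte (5), muscle (5), mesothelial (5), pancreatic (7), intestinal (3), endothelial (19), neutrophil (16) and B cell (14) genes had none past the threshold by limma, with 1 to 3 in each list at an unadjusted p under 0.05. In the biliary and gallbladder list (13 tested) Spink4 alone passed, a Kazal-type inhibitor of mucus-secreting cells, at -0.32, -0.71, -3.79 and -1.38 on the C arrays and -5.54, -4.83, -5.02 and -5.61 on the C+Fc-GLP-1 arrays. It was above background on all C arrays and no treated array and was at least 8.13-fold lower (adjusted p = 0.0181). Its log2 difference ranged from -4.44 to -1.24 over the alternative fits. The median of the erythroid list was -0.11 and that of the neutrophil list 0.13, and both changed sign over the alternative fits. Fcgbp, an Fc-binding protein of mucus that is on no list, fell by 2.67 in log2 units (adjusted p = 0.0363, standard error 0.68). It was above background on all C arrays and 1 treated array, and its difference ranged from -3.06 to -0.68 over the alternative fits. Spink4 did not pass without C replicate 1 or 2 (adjusted p up to 0.0628), nor with normexp and quantile normalization or on the authors' values (adjusted p up to 0.0868). Fcgbp did not pass without C replicate 1 or 2 or C+Fc-GLP-1 replicate 1 or 2 (adjusted p up to 0.118), nor with normexp and quantile normalization or on the authors' values (adjusted p up to 0.155). The summed signal of the biliary list was from 160.4 to 337.3 in C and from 89.8 to 211.1 in C+Fc-GLP-1 livers.

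Single members of other lists passed. Apcs, the pentraxin serum amyloid P, was at 2.11, 2.60, 2.76 and 3.08 on the C arrays and 3.96, 4.43, 3.84 and 3.95 on the C+Fc-GLP-1 arrays and rose by 1.41 (standard error 0.34, adjusted p = 0.0281), 1 of 22 acute phase genes. Apcs did not pass without C replicate 1 or 2 or C+Fc-GLP-1 replicate 1, 2 or 4 (adjusted p up to 0.0905). Chka, which opens phosphatidylcholine synthesis by phosphorylating choline, was at 2.26, 2.38, 2.71 and 2.62 on the C arrays and 3.55, 3.59, 3.30 and 3.88 on the C+Fc-GLP-1 arrays and rose by 1.09 (standard error 0.23, adjusted p = 0.0143), 1 of 25 one-carbon, methionine and choline genes, with all 3 of its other probes higher by 1.27 to 1.82. Obp2a, a lipocalin on the list of sex-biased genes, was at -1.11, -0.97, -0.60 and -1.46 on the C arrays and -6.02, -2.32, -2.85 and -5.74 on the C+Fc-GLP-1 arrays, above background on 2 of the treated arrays, and fell by 3.20 in log2 units (adjusted p = 0.016, standard error 0.70), and with Cyp2a4 was 1 of 2 past the threshold among 29. The median of that list was -0.05 (-0.26 to 0.25 over the alternative fits). Obp2a did not pass without C+Fc-GLP-1 replicate 1 or 4 (adjusted p up to 0.0571). Cell cycle, ER stress, immediate early, urea cycle, insulin signalling, zonation, heat shock and p53 target genes had 0 past the threshold by limma, with 1 to 4 in each list at an unadjusted p under 0.05.

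**Figure D3:**
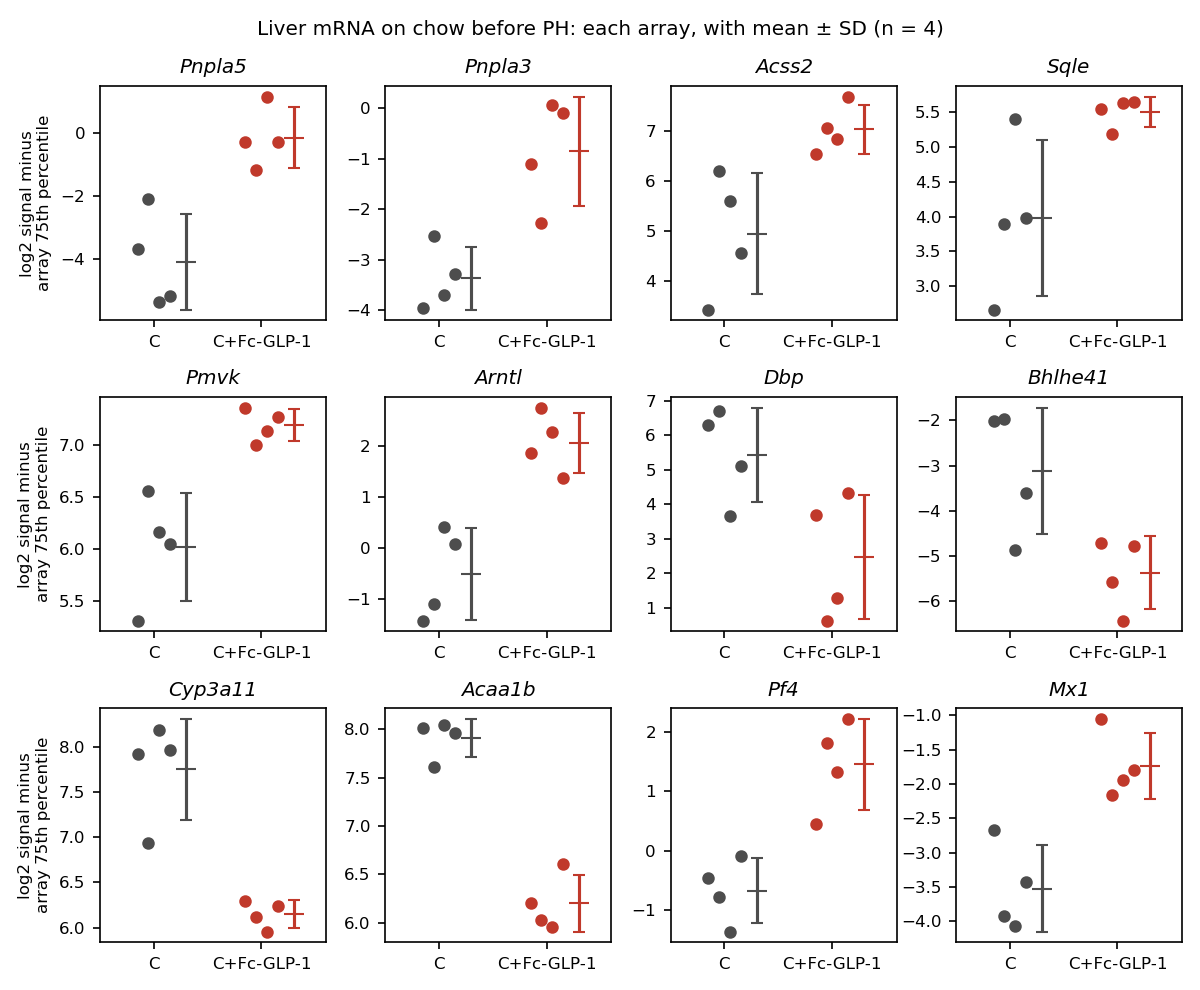
The log2 signal of 12 genes relative to the 75th percentile of the array is shown for each of the 4 C (grey) and 4 C+Fc-GLP-1 (red) livers before PH, with the mean and SD at the right of each group; vertical scales differ between genes. The groups do not overlap for 9 of the genes and overlap for Sqle, Dbp and Bhlhe41, and the Bhlhe41 signals of treated livers were not well above background.

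Most genes with the lowest p-values were on none of the lists. Nap1l3, of the nucleosome assembly family, was at -4.15, -3.75, -3.29 and -3.94 on the C arrays and -1.86, -1.71, -1.74 and -1.71 on the C+Fc-GLP-1 arrays, above background on all arrays but 1 C array, and rose by 2.03 (standard error 0.27, adjusted p = 0.000252). Itgb3bp, a centromere protein, rose by 1.77 (standard error 0.27, adjusted p = 0.000816) and Nipa1, a magnesium transporter, by 1.63 (standard error 0.24, adjusted p = 0.000816). Dntt, the template-free DNA polymerase known from lymphocyte receptor assembly, was at -0.45, -0.06, -0.89 and -0.10 on the C arrays and 1.95, 0.90, 2.28 and 2.11 on the C+Fc-GLP-1 arrays and rose by 2.19 (standard error 0.33, adjusted p = 0.000816). All 4 passed in every fit with 1 array left out.

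Among the largest rises were also Fabp5, a fatty acid binding protein, at 4.78, 6.51, 5.88 and 4.63 on the C arrays and 7.44, 6.80, 8.23 and 8.18 on the C+Fc-GLP-1 arrays and a difference of 2.21 (standard error 0.38, adjusted p = 0.00286), the lysyl oxidase-like enzyme Loxl4 at 2.60 (standard error 0.47, adjusted p = 0.00431), and the retinoblastoma-like Rbl1 at 2.06 (standard error 0.48, adjusted p = 0.0237). A second probe of Loxl4 gave 2.18, but that of Rbl1 gave 0.22. Sgsm1 rose by 2.73 (standard error 0.41, adjusted p = 0.000816), with 1.38 and -0.13 from its 2 other probes. Sgsm1 and Rbl1 were each above background on 2 of the 4 C arrays. Fabp5 and Loxl4 passed in all 8 fits with 1 array left out, as did Sgsm1. Rbl1 did not pass without C replicate 1 or C+Fc-GLP-1 replicate 1 or 2 (adjusted p up to 0.0852), nor with the mean over its probes (adjusted p = 0.100).

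The falls with the lowest p-values were those of Pknox2, a homeobox factor read at chr9:36698570-36698629 (mm9), at least 5.98-fold (adjusted p = 0.000777), of the proteoglycan Acan, of Klhl36, of Olfr433, of Adam11 and of the chemokine Ccl1. Acan was at 0.11, -0.18, -0.35 and -0.19 on the C arrays and -1.97, -2.25, -2.11 and -2.28 on the C+Fc-GLP-1 arrays and fell by 2.0 in log2 units (adjusted p = 0.000816, standard error 0.31). Klhl36 fell by 1.47 in log2 units (adjusted p = 0.000816, standard error 0.22). Adam11, a disintegrin without protease activity, was at 2.95, 2.56, 2.55 and 2.55 on the C arrays and 0.71, 0.68, -0.60 and -0.02 on the C+Fc-GLP-1 arrays and fell by 2.46 in log2 units (adjusted p = 0.00192, standard error 0.40), but its second probe gave -0.27 (standard error 0.20). Olfr433 was at least 6.28-fold and Ccl1 at least 3.75-fold lower (adjusted p = 0.00173 and 0.0022). Over the alternative fits the log2 difference ranged from -3.34 to -1.16 for Pknox2, -3.28 to -0.59 for Olfr433 and -2.57 to -0.83 for Ccl1. All 6 genes of this paragraph passed in all 8 fits with 1 array left out.

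Further large falls were mostly in dim probes or genes not typical of liver. The Polycomb protein Cbx8 was at least 4.98-fold, the X-linked Xlr4a at least 6.75-fold and the olfactory receptor Olfr281 at least 4.07-fold lower, and Xlr4b, above background on 2 of the 4 treated arrays, fell by 2.64 in log2 units (adjusted p = 0.0245, standard error 0.62). Over the alternative fits the log2 difference ranged from -3.09 to -0.80 for Cbx8, -3.22 to -1.35 for Xlr4a and -2.94 to -0.46 for Olfr281. Ermn, a cytoskeletal protein of myelin, was at 7.04, 5.62, 5.48 and 4.33 on the C arrays and 2.36, 2.01, 2.88 and 3.37 on the C+Fc-GLP-1 arrays and fell by 2.96 in log2 units (adjusted p = 0.0245, standard error 0.69), while its second probe gave 0.17 (standard error 0.27). The signalling receptor Notch1, well above background on all 8 arrays, fell by 2.56 in log2 units (adjusted p = 0.0365, standard error 0.66). Cbx8 passed in all 8 fits with 1 array left out. Olfr281 did not pass without C replicate 2 or C+Fc-GLP-1 replicate 2 (adjusted p up to 0.0614), nor on the authors' values (adjusted p = 0.054). Xlr4a did not pass without C replicate 2 or C+Fc-GLP-1 replicate 1 or 2 (adjusted p up to 0.0684). Xlr4b did not pass without C replicate 2 or C+Fc-GLP-1 replicate 1 or 4 (adjusted p up to 0.0666). Ermn did not pass without C replicate 1 or C+Fc-GLP-1 replicate 1 or 2 (adjusted p up to 0.0854). Notch1 did not pass without C replicate 1, 3 or 4 or C+Fc-GLP-1 replicate 1, 2, 3 or 4 (adjusted p up to 0.129), nor with normexp and quantile normalization or on the authors' values (adjusted p up to 0.0629).

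The same genes were followed in mice given Fc-GLP-1 on the MCD diet. The treated and untreated arrays of both diets stood on the same pair of slides, and a difference between slides that adds equally to both diets leaves the difference of the effects as it is. Of the 206 genes higher on chow 99 were also above 0 on MCD, where 57.6% of all genes lay above 0. Past the threshold were 13 in the same direction and 9 in the opposite one, where 4.43% of all genes passed higher and 2.79% lower. Of the 238 lower genes 104 were also below 0 on MCD, 6 past the threshold and 9 opposite. The difference between the diets passed in 90 of the 206 (43.7%) and 124 of the 238 (52.1%), against 6.15% of all genes, but it contains the chow difference by which these genes were picked.

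Arntl differed by -1.53 on MCD (standard error 0.64), and the effect on chow exceeded that on MCD by 4.11 (adjusted p = 0.011). For F13a1 the effect turned from 2.67 to -2.41 (adjusted p of the difference 0.0065), for Dntt from 2.19 to -1.26 (0.000974) and for Chka from 1.09 to -0.86 (0.00282), with both effects past the threshold. F13a1 was well above background on no M+Fc-GLP-1 array, so the size of its fall there is uncertain. The cholesterol list had a median of -0.47 on MCD with 2 of 20 above 0, and the difference between diets passed in 8 of them, including Sqle and Pmvk. The macrophage list had a median of -1.49 on MCD, with 9 of 23 genes past the threshold there, all lower, and 9 whose difference between diets passed. The interferon list stood at -0.48, with 6 such genes.

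Cyp39a1 and Cyp3a41b were among the genes that passed in the same direction on both diets. Cyp39a1 rose by 1.47 on chow and by 1.71 on MCD (adjusted p = 0.00116), and the difference was -0.24 (standard error 0.42). Cyp3a41b was lower on both, at -2.0 and -1.44, with -0.56 between them (standard error 0.49).

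**Figure D4:**
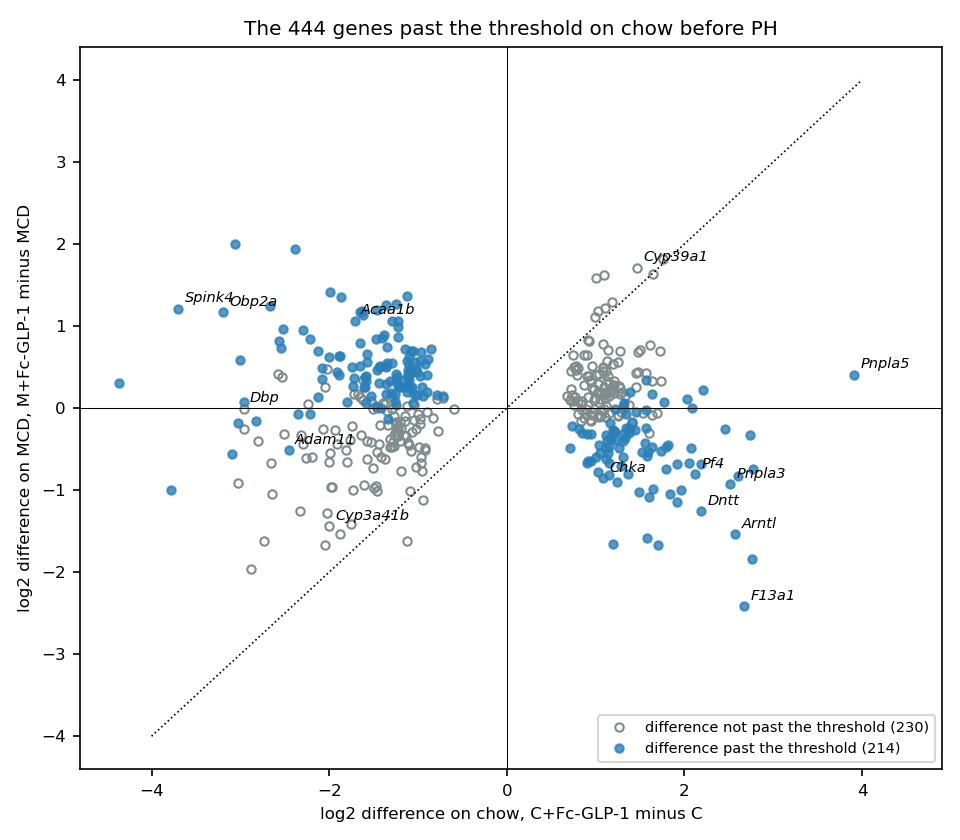
Each point is 1 of the 444 genes past the threshold on chow before PH, with its log2 difference on chow on the horizontal axis and that on MCD before PH on the vertical axis; blue points are the 214 whose difference between diets also passed the threshold and the dotted line marks equal effects. Cyp39a1 lies near the line of equal effects, and F13a1, Arntl and Dntt lie below 0 on MCD.

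At 2 weeks after PH the treated chow livers were compared with their own C livers on other arrays. Of the 206 higher genes 154 were again above 0, with 9 past the threshold and none opposite, where 1.13% of all genes passed higher, 0.925% passed lower and 53.7% lay above 0. Of the 238 lower genes 127 were again below 0, with 4 past the threshold and 14 opposite. C livers after PH were scanned on another scanner and on a slide that held no other group, so the slide cannot be told apart from the treatment there either. The change of the effect between the times passed in 1.1% of all genes, in 12 of the 206 and in 56 of the 238, but it contains the effect by which these genes were picked.

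Pnpla3 kept its rise, with 2.58 after PH (standard error 0.61, adjusted p = 0.0225), and Cyp39a1 did with 1.37 (adjusted p = 0.0134). Sgsm1 passed again at 1.63 (adjusted p = 0.0305), and Adam11 was again lower at -1.80 (adjusted p = 0.0152). The cholesterol list had 19 of 20 genes above 0 once more and a median of 0.78, though none passed. Pf4 went from 2.12 to -0.16 (adjusted p of the change 0.0377), and 3 of the 20 platelet genes were above 0 after PH. Olfr281 was opposite, at 2.15 after PH (adjusted p = 0.0405).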

How the data were processed

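Liver RNA of the 32 samples was hybridised to 1-colour mouse 8x60K Agilent arrays of 62976 spots, 1 array per sample. The deposited scanner tables hold an intensity for each spot (gProcessedSignal), which the authors' scanner software, Feature Extraction 10.7.3.1, had already corrected for background. The authors also deposited a table of normalized log2 values, made with limma (version not given in the sources used here), which served as an alternative.

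Here the log2 intensity of each spot was set against its array's 75th percentile, taken over the 59305 spots that are not controls. Spots of a probe were averaged, 426 of 55681 probes with outlier spots were dropped, and 28937 probes were kept, each of which some group had well above background on all 4 of its arrays. The brightest probe stood for its gene. Accessions matched RefSeq for 27656 probes, of which 1711 were named otherwise in the files. No spot was saturated. All 21073 genes were tested with limma 3.58.1 in R 4.3.3 in 1 model of the 8 groups (24 residual degrees of freedom), two-sided, with Benjamini-Hochberg adjustment and a threshold of 0.05. The number of arrays limits the precision. A gene that a group's arrays never had well above background has only a bound there, and its fold is that of the other group's mean over the higher of the lowest detected signal and its own.

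The text names the 12 genes with the largest and the 6 with the lowest p-value in each direction, every list member past the threshold, and the mRNAs that the study measured, and singles out further list members by role. The members and lists were chosen with earlier results of these data known, and the platelet and Cyp3a lists after their values were seen. A few members of the cholesterol and platelet lists are not reported here and enter none of the lists' counts or medians. In a test on simulated data with 200 changed genes among 21073 in this comparison, 28% of the changes of 1 and 76% of those of 2 on the log2 scale were recovered, and 6 unchanged genes were called. Same-numbered C and C+Fc-GLP-1 arrays are different mice and were not taken as pairs. Alternatives were another background correction and normalization, other centrings, the authors' values, other filters and probe rules, fewer arrays in the model, a replicate block, a mean-variance trend, and leaving out each array.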

Additional observations from a re-analysis of the deposited data

Results flagged for a closer look

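In 5 of the 146 groups of 4 arrays examined for the 73 named genes, 1 array stood apart from the other three, and chance gives about 1 in 20. Rbl1 was at -5.73 in C replicate 1 and between -3.08 and -2.93 in the others of its group. Adam11 was at 2.95 in C replicate 1 and between 2.55 and 2.56 in the others of its group. Sparc was at 4.94 in C+Fc-GLP-1 replicate 4 and between 5.65 and 5.67 in the others of its group. Treml1 was at 0.81 in C+Fc-GLP-1 replicate 4 and between -0.83 and -0.57 in the others of its group. Fgf21 was at -1.0 in C+Fc-GLP-1 replicate 2 and between 0.86 and 1.22 in the others of its group.

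The effect of Fc-GLP-1 differed between the diets for 41 named genes by limma's interaction test, given here as the log2 effect on chow minus that on MCD. It did so for 6.15% of all genes tested, and most of the named genes were picked by the effect on chow that this difference contains. The effect on chow was the higher one for Pnpla5 (3.51, adjusted p = 0.0275), Sgsm1 (3.06, adjusted p = 0.00396), F13a1 (5.08, adjusted p = 0.0065), Loxl4 (3.43, adjusted p = 0.00408), Arntl (4.11, adjusted p = 0.011) and Pnpla3 (3.44, adjusted p = 0.0205). It was also higher for Ppbp (2.71, adjusted p = 0.0456), Fabp5 (1.99, adjusted p = 0.0275), Dntt (3.45, adjusted p = 0.000974), Pf4 (2.93, adjusted p = 0.00396), Acss2 (2.08, adjusted p = 0.0485) and Rbl1 (2.72, adjusted p = 0.0194). Higher effects on chow were found as well for Nap1l3 (1.91, adjusted p = 0.00613), Nipa1 (2.1, adjusted p = 0.00185), Itgb3bp (1.69, adjusted p = 0.011), Hk2 (3.06, adjusted p = 0.0108), Acly (1.82, adjusted p = 0.0181) and G6pdx (2.17, adjusted p = 0.0241). Further such genes were Sqle (2.06, adjusted p = 0.0347), Pmvk (1.55, adjusted p = 0.017), Apcs (1.59, adjusted p = 0.0474), Mx1 (2.27, adjusted p = 0.0154), Sparc (1.6, adjusted p = 0.0113) and Chka (1.94, adjusted p = 0.00282). The same direction was found for Myl9 (1.63, adjusted p = 0.0275), Il1b (3.42, adjusted p = 0.00512) and Ccl2 (4.4, adjusted p = 0.0298). The effect on chow was the lower one for Obp2a (-4.36, adjusted p = 0.012), Spink4 (-4.91, adjusted p = 0.0154), Fcgbp (-3.91, adjusted p = 0.019), Olfr433 (-3.59, adjusted p = 0.00408), Pknox2 (-2.54, adjusted p = 0.0203) and Notch1 (-3.38, adjusted p = 0.0311). It was also lower for Adam11 (-1.94, adjusted p = 0.0405), Cbx8 (-3.03, adjusted p = 0.0275), Olfr281 (-3.28, adjusted p = 0.0173), Klhl36 (-1.49, adjusted p = 0.00855), Ccl1 (-2.28, adjusted p = 0.017) and Acaa1b (-2.78, adjusted p = 0.00387). Lower effects on chow were found as well for Abcc3 (-1.77, adjusted p = 0.00351) and Cyp3a25 (-2.09, adjusted p = 0.00794). Some of these differences rest on signal not well above background and are not bounds. For Pnpla5 and Obp2a no MCD or M+Fc-GLP-1 array before PH was well above background, so their effect on MCD is unmeasured. No M+Fc-GLP-1 array was for F13a1, Pnpla3, Pknox2 or Ccl1. No C+Fc-GLP-1 array was for Spink4, Olfr433, Olfr281, Cbx8, Pknox2 or Ccl1.

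For 10 named genes the effect on chow differed between before and after PH, given as the effect before minus that after. This share was 1.1% over all genes tested, and most of the named genes were picked by the effect before PH that the difference contains. The effect before PH was the higher one for Pf4 (2.28, adjusted p = 0.0377) and Nipa1 (1.96, adjusted p = 0.00337). It was the lower one for Ermn (-5.28, adjusted p = 0.00484), Fcgbp (-3.78, adjusted p = 0.0473), Olfr433 (-4.69, adjusted p = 0.000931), Pknox2 (-2.92, adjusted p = 0.0163), Notch1 (-4.78, adjusted p = 0.00793) and Cbx8 (-3.67, adjusted p = 0.019). It was lower as well for Olfr281 (-4.69, adjusted p = 0.00282) and Klhl36 (-1.57, adjusted p = 0.0111). Olfr433, Pknox2, Cbx8 and Olfr281 were well above background on no C+Fc-GLP-1 array before PH, and Olfr433 also on no C array after PH. The sizes of their differences are therefore uncertain. No explanation was tested for these differences.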

How the results depend on the processing

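All 55 genes named as past the threshold kept their direction in all 19 alternatives, and 47 passed with normexp background correction and quantile normalization, 51 with centring on the array median, 45 on the authors' values, 12 in the fit of the 8 arrays alone and 32 to 46 with 1 array left out. The direction could not change in the fits of fewer groups, with a replicate block or with a mean-variance trend, which keep the group means. The count of 444 genes became 2465 with normexp and quantile normalization (951 higher), 1039 with centring on the median (933 higher), 2122 on the authors' values (850 higher) and 48 with only the 8 arrays (9 higher). Without the filter on dim probes it was 534 (344 higher). It ranged from 198 to 486 with 1 array left out, and was 290 or less without C replicate 1, 2 or 4 or any of the 4 C+Fc-GLP-1 arrays. Taking the percentile over probe values, an alternative chosen after seeing the data, gave 484. Same-numbered arrays deviated from their group means with correlations of 0.01, -0.19, 0.05 and 0.04, no C array correlated best with its own number, and with a replicate block the count was 410.

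After PH the count (239 higher and 195 lower) was 136 with normexp, 196 on the authors' values, 211 without the filter on dim probes, 88 with its own arrays only, and 182 to 370 with 1 array left out. On MCD the count (934 higher and 587 lower) was 2670 with normexp, 6761 without the filter, and 546 to 1722. The difference between diets, 1296 genes, was 525 with normexp, 2564 with centring on the median, 340 on the authors' values, and 647 to 1478. The change between times, 232 genes, was 613 with normexp, 503 on the authors' values, and 132 to 286. The cause was not tested. Probes near background, which make up many of the falls, limit what can be read from their size.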

Other observations

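Heat shock genes had 10 of 11 members above 0 and a median difference of 0.33, with none past the threshold by limma and 3 at an unadjusted p under 0.05. Glycogen genes had 10 of 14 above 0 and a median of 0.19, also with none past the threshold and 3 at an unadjusted p under 0.05. The summed linear signal of the adipocyte and mesentery list, in units of the 75th percentile, was from 7.27 to 14.1 on the C arrays and from 5.37 to 6.97 on the C+Fc-GLP-1 arrays, that of the pericentral and periportal list from 1979 to 2306 and from 1388 to 1955, and that of the interferon list from 242.7 to 294.5 and from 323.4 to 393.4. Such sums are weighted towards the brightest genes, and the median difference of the pericentral and periportal list was -0.03. What part the differences in this paragraph had in the results above was not tested.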
